A study of Rattus norvegicus with 66 samples.

Results

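Hmgcs1, Sqle, Idi1, Fdft1, Cyp51, Dhcr7 and Srebf2 are genes of cholesterol synthesis, and their mRNA was followed in dorsal hippocampus of rat pups. The members are the 7 genes with these symbols in the gene table that accompanies the counts, out of all 37777 entries, and each symbol had 1 entry. They comprise 6 enzymes of the pathway and Srebf2, which encodes the transcription factor SREBP2. None of the 7 is a receptor for uptake; genes of uptake, storage and export are described below from a separate list. RNA of 64 Long Evans pups, 41 males and 23 females of 44 litters, was sequenced on postnatal day (PND) 6 in 66 libraries.

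The groups differed in what the dams received, and the labels name no genetic change in any group. Feeding controls (CONF, 4 males and 5 females) came from dams on untreated chow, and injection controls (CONSC, 5 males and 5 females) from dams injected subcutaneously with vehicle, which the labels call saline and the methods DMSO. Aroclor 1254, a commercial mixture of polychlorinated biphenyls, was mixed into the chow from before mating through pregnancy and lactation at 5 mg/kg (Aro5, 6 males and 5 females) or 0.5 mg/kg (Aro0.5, 4 males). Bisphenol A, a plastics monomer, was given in the same way at 5 mg/kg (BPA5, 7 males and 4 females) or 0.5 mg/kg (BPA0.5, 4 males). Chlorpyrifos, an organophosphate insecticide, was injected into the dams during pregnancy and lactation at 3 mg/kg (CPF3, 7 males and 4 females) or 1 mg/kg (CPF1, 4 males). The pups were thus exposed only through their mothers, and pups of 1 litter shared a dam. As the study did, CONF and CONSC pups of a sex formed 1 control group. The dissected piece held some lateral cortex beside the hippocampus.

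Cholesterol in the brain is made locally, because lipoproteins of the blood hardly cross the blood-brain barrier, and the demand is high while neurites, synapses and myelin grow. Synthesis runs from acetyl-CoA through mevalonate and isoprenoids to squalene and then through a series of sterols. When sterols in the endoplasmic reticulum are low, SREBP2 is carried by Scap to the Golgi, cut and released, and it then raises transcription of most genes of the pathway, its own gene included. Insig proteins hold the complex back when sterols are high. The study addressed effects of endocrine disrupters on hippocampal gene expression, and the comparisons below follow its groups.

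SREBP2 is known to act beside the factor NF-Y, which binds CCAAT. Promoter windows are shown for a pair of enzymes that varied together and for Srebf2, whose relation to them did not pass the test. Windows of 250 bases before to 50 bases after the gene start were available from RefSeq for 5 of the 7 members (Hmgcs1, Idi1, Cyp51, Dhcr7 and Srebf2) on build GRCr8, which is not the build of the counts. The stretches below cover the 200 bases before the start, 5′ to 3′ on the strand of the gene. Capitals mark CCAAT or its reverse complement ATTGG. They lie at chr2:53382104-53382303 (plus strand) for Hmgcs1, at chr17:66547525-66547724 (minus strand) for Idi1 and at chr7:115543107-115543306 (plus strand) for Srebf2.
Hmgcs1: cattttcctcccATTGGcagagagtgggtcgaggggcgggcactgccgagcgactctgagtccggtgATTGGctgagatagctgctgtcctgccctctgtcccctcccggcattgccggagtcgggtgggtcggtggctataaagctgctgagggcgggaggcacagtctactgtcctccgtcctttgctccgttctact
Idi1: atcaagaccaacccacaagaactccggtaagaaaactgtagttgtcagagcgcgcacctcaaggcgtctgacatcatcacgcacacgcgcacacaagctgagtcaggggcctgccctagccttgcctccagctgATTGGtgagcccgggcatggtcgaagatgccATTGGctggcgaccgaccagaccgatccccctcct
Srebf2: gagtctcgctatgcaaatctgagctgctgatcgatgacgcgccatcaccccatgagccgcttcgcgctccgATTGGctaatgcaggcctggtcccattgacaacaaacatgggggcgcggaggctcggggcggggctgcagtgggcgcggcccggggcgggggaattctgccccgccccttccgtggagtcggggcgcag
On both strands of the whole windows, CCAAT was found 2 times in Hmgcs1, 2 times in Idi1, 1 time in Srebf2 and not in Cyp51 or Dhcr7, and 37.5% of all 33469 promoter windows held it. The GC box GGGCGG was found in Hmgcs1, Cyp51, Dhcr7 and Srebf2 and not in Idi1, against 33.1% of all windows. The letters TCACNCCAC, a form of the sterol regulatory element, were in none of the 5 windows and in 1.12% of all. Their shorter form TCACNCCA, which every match of the longer form also holds, was found once in Srebf2, at position -156 from the start, and in 3.89% of all windows. Cyp51 and Dhcr7, whose windows held no CCAAT, also varied together (r = 0.59 over 64 pups, adjusted permutation p = 0.00231). These matches describe letters in the windows and do not show binding, and their relation to the co-variation was not tested.

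Total counts per pup ranged from 10644138 to 86206550, with a median of 22369135. Members had between 757 and 58239 counts per pup, so that counting error was at most 3.63% of any value. Levels are given as CPM, a gene's counts scaled to the total count of the pup. Because transcript lengths were not used, levels are compared between pups and groups but not between genes. Library names in the sample titles are written in 2 forms, here called A and B. All 20 high-dose males had form B, the 12 low-dose males form A, male controls 9 libraries with A and 1 with B, and control females 5 with A and 6 with B. What the forms stand for was not given in the sources used here, and in high-dose males treatment and form cannot be told apart. The form was not read for the 13 libraries of high-dose females. Neuronal and hippocampal markers were present in all pups, with summed levels of 2051 to 4029 CPM for 5 neuronal genes and 108 to 342 CPM for 4 hippocampal genes. In bulk tissue, fewer cells of a type and less RNA per cell cannot be told apart.

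The enzymes were detected in every pup, with coefficients of variation of 15.2% or less over all pups. Hmgcs1, the synthase that forms HMG-CoA for the mevalonate branch, ranged over all pups from 511 to 1040 CPM, with a median of 761. Its group means ran from 649 ± 105 CPM in female CPF3 (SD, n = 4) to 893 ± 83.6 CPM in male Aro5 (SD, n = 6). Idi1, the isomerase that makes the reactive isoprenoid unit, ranged from 46.9 to 157 CPM around a median of 120 and had the highest coefficient of variation of the enzymes, 15.2%. Its means ran from 92.3 ± 31.1 CPM in female CPF3 (SD, n = 4) to 133 ± 10.6 CPM in male CONF (SD, n = 4).

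Fdft1, squalene synthase, which commits isoprenoids to sterols, ranged from 125 to 229 CPM with a median of 191. Group means of Fdft1 lay between 164 ± 25.8 CPM in female CPF3 (SD, n = 4) and 208 ± 7.11 CPM in male CPF1 (SD, n = 4). Sqle, squalene epoxidase, which introduces the first oxygen, ranged from 124 to 223 CPM with a median of 186. Its means lay between 157 ± 22.98 CPM in female CPF3 (SD, n = 4) and 201 ± 10.0 CPM in male CONF (SD, n = 4). For Idi1, Fdft1 and Sqle, the 5 female groups took the 5 lowest places in the order of the 13 group means.

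Among the later enzymes, Cyp51, the demethylase of lanosterol, ranged from 172 to 283 CPM with a median of 231, and its means from 205 ± 31.5 CPM in female CPF3 (SD, n = 4) to 255 ± 22.1 CPM in male Aro0.5 (SD, n = 4). Dhcr7, the reductase that yields cholesterol from dehydrocholesterol, ranged from 59.2 to 100.2 CPM with a median of 86.1. Its means ran from 77.4 ± 5.06 CPM in male BPA0.5 (SD, n = 4) to 92.7 ± 2.82 CPM in female BPA5 (SD, n = 4).

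Srebf2 had the same highest and lowest group as Dhcr7. It ranged from 141 to 244 CPM with a median of 191, and its means from 149 ± 9.56 CPM in male BPA0.5 (SD, n = 4) to 213 ± 7.26 CPM in female BPA5 (SD, n = 4). The 5 female groups held the 5 highest places for this gene. Between neighbours in the order of the 13 group means, most steps were smaller than the pooled SD of the neighbouring groups. The step exceeded it in 0 of 12 places for Hmgcs1, Sqle, Idi1, Fdft1 and Cyp51, in 1 of 12 for Dhcr7 and in 2 of 12 for Srebf2. Neighbours among 13 sorted means lie close through the sorting, so these counts do not show how far groups differ. The plot of the levels of all pups shows how far the groups overlap.

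**Figure D1:**
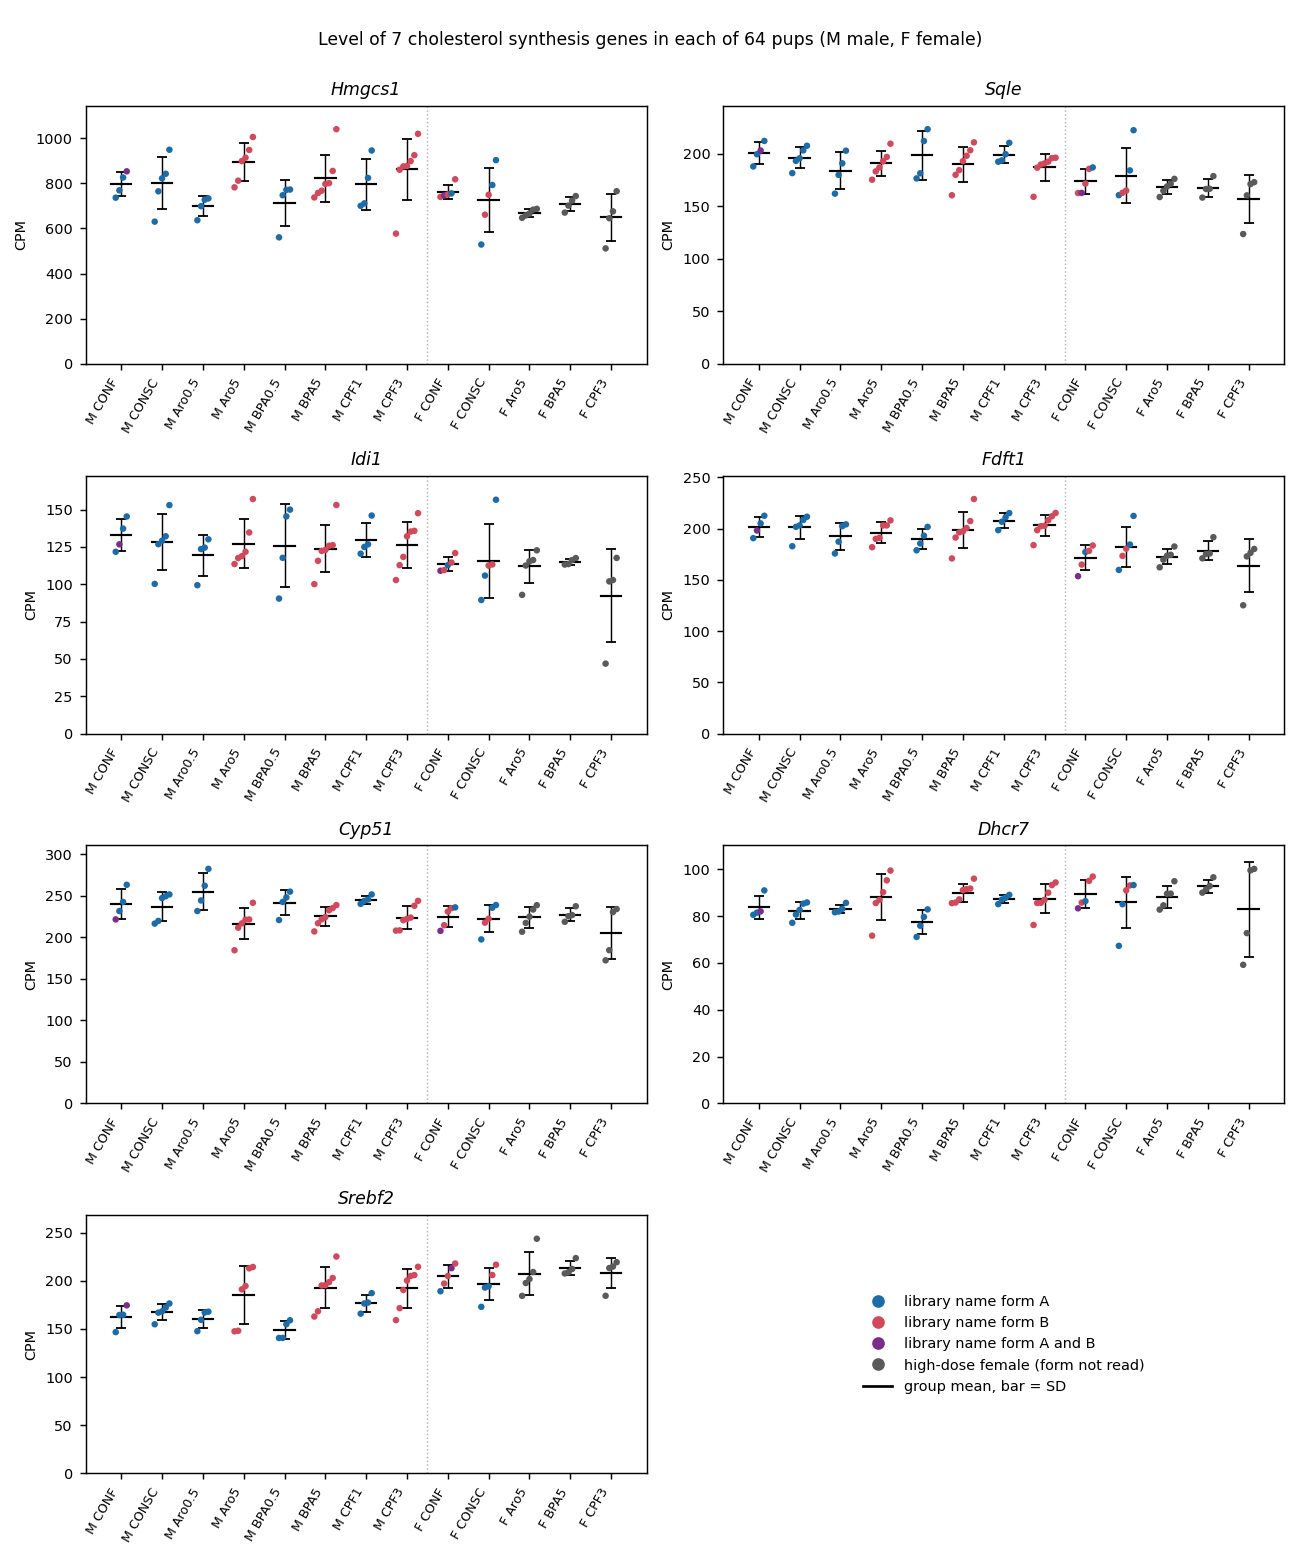
Level of each member in CPM (vertical axis, from 0) in every pup of the 13 groups (horizontal axis, M male, F female); points are pups, coloured by the form of the library name, and black lines and bars are group means and SD. Srebf2 is the member with the 5 female groups at the top, between 197 and 213 CPM on average, while Sqle, Idi1 and Fdft1 have them at the bottom.

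No member passed the test with any treatment. In males, pups of the high doses were compared with 9 controls in a quasi-likelihood fit of edgeR, adjusted over 16393 genes after Benjamini and Hochberg, and 0 of 7 members had an adjusted p under 0.05 with each agent. Of all genes tested, 0.195% were called with Aro5, 0.189% with BPA5 and 0.159% with CPF3. At the low doses, 0 of 7 members were called with each agent, against 0.124% of 16139 genes with Aro0.5, 0.0434% with BPA0.5 and 0.0% with CPF1. In females, 0 of 7 members were called with Aro5, with BPA5 and with CPF3, where 0.0% of 16992 genes were called each time. DESeq2 called 0 members in these 9 contrasts, and of all genes 0.616%, 0.384% and 0.500% with Aro5, BPA5 and CPF3 in males, 1.67%, 0.242% and 0.0% at the low doses and at most 0.0177% in females. At an unadjusted p under 0.05, 7 of the 63 values of members passed, against 8.69% of all gene values in the 9 contrasts.

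The intervals bound the differences between the groups. In high-dose males these hold treatment and name form together, so the intervals there do not bound an effect of treatment alone. In high-dose females the form was not read. Over the 6 enzymes and 9 contrasts, log2 fold changes ran from -0.29 to 0.18, and their 95% intervals reached from -0.60 to 0.37, that is from 0.660-fold to 1.29-fold of controls. In high-dose males alone the intervals of the enzymes reached from 0.841-fold to 1.29-fold, in low-dose males from 0.792-fold to 1.24-fold, and in high-dose females from 0.660-fold to 1.25-fold. For Srebf2, the intervals over the 9 contrasts reached from 0.847-fold to 1.31-fold. The contrasts of 1 sex and dose share their control pups. Of 39 further genes of cholesterol synthesis, its regulation, uptake and export, 0 were called in these 9 contrasts by edgeR and 0 by DESeq2, and 29 of their 351 values had an unadjusted p under 0.05.

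Srebf2 in high-dose males had values on the same side of the controls with each agent. The 9 control males had a lowest value of 147, a median of 167 and a highest value of 176 CPM. The 6 Aro5 males had a lowest value of 148, a median of 193 and a highest value of 214 CPM. The values of 7 BPA5 males were 163, 196 and 225 CPM, and those of 7 CPF3 males 159, 200.3 and 215 CPM, in the same order. Above all controls lay 4 of 6 Aro5 males, 5 of 7 BPA5 males and 5 of 7 CPF3 males. The others overlapped the controls, among them both males of Aro5 litter 120, at 148 CPM.

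The fitted log2 fold change of Srebf2 was 0.18 with Aro5 (95% interval 0.01 to 0.34), 0.23 with BPA5 (0.07 to 0.39) and 0.23 with CPF3 (0.07 to 0.39). The adjusted p of edgeR was 0.390, 0.439 and 0.271, so that none passed. All treated libraries were of form B and all but 1 control library of form A. When libraries were counted separately and the name form entered the fit, a term that the 2 libraries of 1 control male determine, the log2 fold changes were -0.09, -0.04 and -0.04, on the other side of 0. In control females, where both forms occur, Srebf2 had a difference of 0.14 on the log2 scale in form B against form A (95% interval 0.02 to 0.27, adjusted p = 0.216 by edgeR). In low-dose males, whose libraries were of form A like those of the controls, Srebf2 had log2 fold changes of 0.03 with Aro0.5, -0.12 with BPA0.5 and 0.11 with CPF1, with adjusted p of 0.566 or more by edgeR.

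Of the enzymes, Cyp51 had a log2 fold change of -0.12 in Aro5 males (unadjusted p = 0.0495, adjusted p = 0.424 by edgeR) and of 0.17 in Aro0.5 males (unadjusted p = 0.0193, adjusted p = 0.201). Without Aro5 male 116-6y the first was -0.08 (adjusted p = 0.774 by edgeR), and without Aro0.5 male 94-3y the second was 0.10 (adjusted p = 0.557). The 4 Aro0.5 males had 232 to 283 CPM, and the 9 control males 217 to 263 CPM. Dhcr7 had a log2 fold change of 0.12 in BPA5 males (unadjusted p = 0.0406, adjusted p = 0.535 by edgeR). In that comparison 7 BPA5 males had 85.5 to 96.0 CPM and the control males 77.1 to 91.0 CPM. Hmgcs1 had its highest group mean in Aro5 males, with a log2 fold change of 0.18 (95% interval -0.01 to 0.37, adjusted p = 0.457 by edgeR), and lay at -0.12 in Aro0.5 males.

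The female CPF3 group had the lowest mean of the 13 groups for 5 of the 6 enzymes, all but Dhcr7. Without pup 43-3x, left out after the values were seen, it had the lowest mean for 1, Idi1 (107 CPM), and the lowest means of Hmgcs1, Sqle, Fdft1 and Cyp51 lay in other groups. The 4 CPF3 females had 46.9, 102, 103 and 118 CPM of Idi1, and the log2 fold change was -0.29 (95% interval -0.60 to 0.02, adjusted p = 0.582 by edgeR), or -0.08 without 43-3x. That pup had the lowest value of all 64 pups in all 6 enzymes, with 511 CPM of Hmgcs1, 124 of Sqle, 125 of Fdft1, 172 of Cyp51 and 59.2 of Dhcr7. The other 3 CPF3 females lay within the range of the female controls for Idi1, which was 89.5 to 157 CPM.

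**Figure D2:**
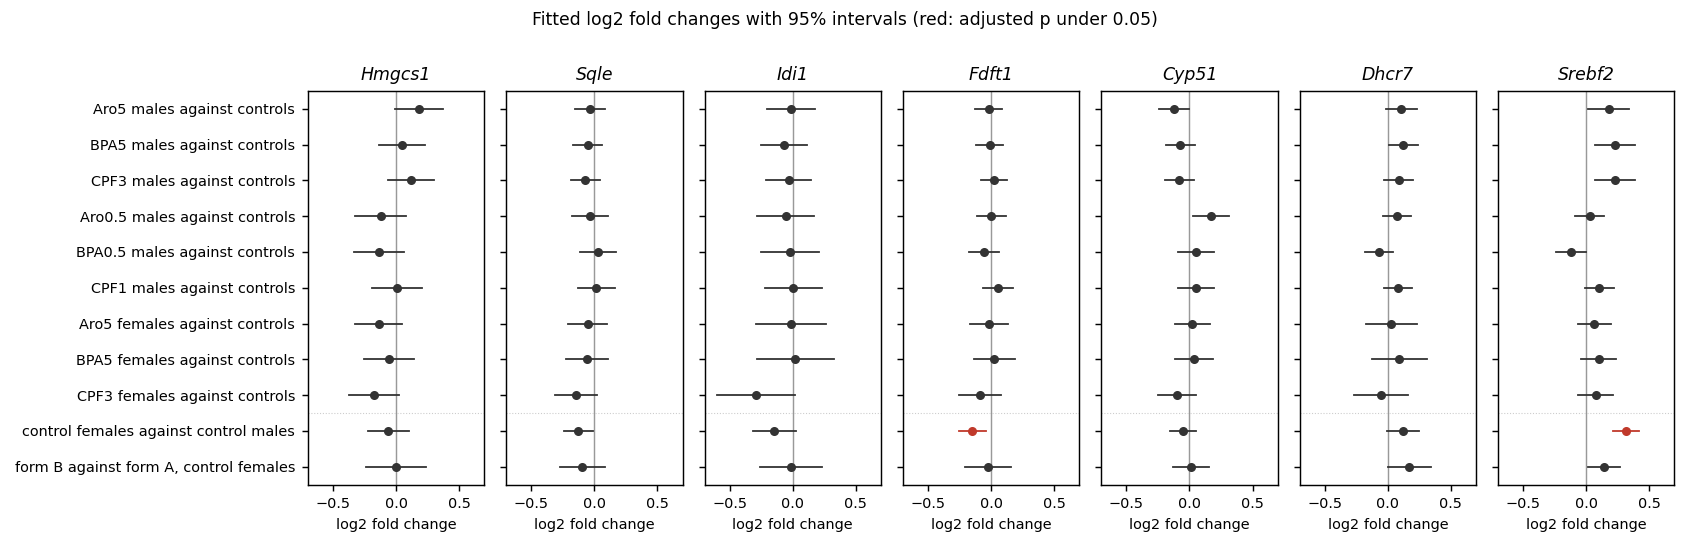
Fitted log2 fold changes (points, horizontal axis) with 95% intervals (lines) of the 7 members in the 9 treatment contrasts, in control females against control males and between the name forms in control females. All treatment intervals are grey and lie between -0.60 and 0.39, and the red ones, past the threshold, are Fdft1 and Srebf2 between the sexes.

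The high-dose agents were also compared with each other in males, all within name form B. Of 7 members 0 were called for BPA5 against Aro5, for CPF3 against Aro5 and for CPF3 against BPA5 by edgeR, where 0.0% of genes were called each time, and DESeq2 called 0 members too. At an unadjusted p under 0.05, 0 of 21 values passed, against 3.76% of all gene values. Log2 differences between agents ran from -0.13 (Hmgcs1, BPA5 against Aro5) to 0.07, with 95% intervals from -0.33 to 0.26. The route of the control treatment was compared in the same way. CONSC against CONF called 0 of 7 members in males (0.013% of 15387 genes) and 0 of 7 in females (0.0% of 16618 genes) by edgeR and by DESeq2, with 0 of 14 values at an unadjusted p under 0.05 against 2.7% of gene values, and log2 differences between -0.07 and 0.08.

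Between the sexes, Srebf2 was higher and Fdft1 lower in control females than in control males. Control males had 147 to 176 CPM of Srebf2 with a median of 167 (n = 9), and control females 173 to 218 CPM with a median of 201 (n = 10). Of the 10 females, 9 lay above all males. The log2 fold change was 0.32 ± 0.05 (SE), 1.25-fold with a 95% interval of 1.16 to 1.34, with an adjusted p of 2.91e-05 by edgeR. Within libraries of form A alone it was 0.27 ± 0.06 (adjusted p = 0.00777 by edgeR).

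Fdft1 had 183 to 213 CPM with a median of 203 in control males and 154 to 212 CPM with a median of 178 in control females, of which 7 of 10 lay below all males. Its log2 fold change was -0.15 ± 0.05 (SE), 0.901-fold with a 95% interval of 0.836 to 0.972 (adjusted p = 0.0326 by edgeR). The call was lost within form A (-0.16, adjusted p = 0.169 by edgeR) and when any 1 of 8 pups was left out, the females N2-4x, N4-3x, N8-1x and 6-7x and the males N3-4y, N4-7y, 10-2y and 6-5y (log2 fold change -0.15 to -0.13, adjusted p 0.0502 to 0.0628 by edgeR). Sqle had a log2 fold change of -0.13 (adjusted p = 0.0821), Idi1 of -0.15 (0.182), Dhcr7 of 0.12 (0.132), Hmgcs1 of -0.06 (0.594) and Cyp51 of -0.05 (0.462). Without CONSC female 13-8x, which had the highest values of Sqle and Idi1 among the control females, 4 members in place of 2 were called, Sqle (log2 fold change -0.17, adjusted p = 0.00557 by edgeR) and Idi1 (-0.20, adjusted p = 0.0246) being added.

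These 2 calls among 7 members stand against 30.9% of all 15763 genes, 17.8% of genes being higher and 13.1% lower in females, so that the members' share was near that of all genes and is not a result particular to them. Of 39 further genes of cholesterol metabolism, 14 were called, 10 higher and 4 lower in females. Of 15 synthesis enzymes 7 moved, among them Mvd (log2 fold change 0.73), Mvk (0.47) and Tm7sf2 (0.28), which were higher, and Ggps1 (-0.25), Msmo1 (-0.24) and Nsdhl (-0.15), which were lower, so that the list had no single direction, with a median of -0.08 against -0.02 for all genes. Higher were also Srebf1 (0.60) and Scap (0.35) of 7 SREBP regulators, the receptors Lrp1 (0.40) and Scarb1 (0.19) of 9 genes of uptake, and Nr1h2 (0.72) and Cyp46a1 (0.35) of 8 genes of export and turnover, of which Soat1 (-0.21) was lower. Markers of cell types moved in the same comparison. Rbfox3 (0.68) and Tubb3 (0.48) of 5 neuronal markers were higher in females, with summed neuronal levels of 2439 to 3167 CPM in control males and 2411 to 4029 CPM in control females. The neuronal marker Gad1 had -0.30 (adjusted p = 0.145 by edgeR). Of 7 oligodendrocyte markers, Mag (0.37) and Mbp (0.33) were higher and Mog (-0.63) lower, with sums of 386 to 598 and 366 to 594 CPM. Of 4 hippocampal markers, Wfs1 (0.81) was higher, and Zbtb20 (0.68), Neurod6 (-0.06) and Prox1 (-0.18) did not pass. Of 3 endothelial markers, Cldn5 (0.52) was higher, and Flt1 (0.10) and Pecam1 (0.01) did not pass. Of 5 markers of oligodendrocyte precursors, Olig1 (0.49) was higher and Pdgfra (-0.21) lower, and Olig2 (0.25), Cspg4 (0.16) and Gpr17 (0.11) did not pass. Of 5 astrocyte markers, Slc1a3 (-0.17) was lower, and Gfap (0.15), Aqp4 (0.05), Aldh1l1 (0.02) and Aldoc (-0.03) did not pass. The part of cell composition and of the name form in the differences between the sexes was not tested beyond the values given.

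Whether the response to a treatment differed between the sexes was tested as an interaction. Of 7 members 0 were called for Aro5 (0.0984% of 17282 genes), for BPA5 (0.0405%) and for CPF3 (0.0463%) by edgeR, and 0 by DESeq2. At an unadjusted p under 0.05, 2 of 21 values passed against 5.77% of gene values, and both were of Hmgcs1. The response of females minus that of males was -0.33 on the log2 scale for Aro5 (95% interval -0.60 to -0.06, adjusted p = 0.441 by edgeR) and -0.31 for CPF3 (-0.58 to -0.03, adjusted p = 0.872). Behind these values were male means of 799 ± 88.7 CPM in controls (SD, n = 9), 893 ± 83.6 in Aro5 (n = 6) and 861 ± 136 in CPF3 (n = 7), and female means of 744 ± 98.0 CPM in controls (SD, n = 10), 668 ± 16.9 in Aro5 (n = 5) and 649 ± 105 in CPF3 (n = 4). The name form changes with treatment in males, and its part was not tested.

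Libraries of form B and form A were compared in control females. Of 7 members 0 were called by edgeR and 0 by DESeq2, against 1.43% of 16577 genes by edgeR and 5.18% by DESeq2, and 2 at an unadjusted p under 0.05, Dhcr7 (log2 difference 0.17) and Srebf2 (0.14), against 18.7% of genes. Without the form A library 9-1x, Dhcr7 had 0.10 (adjusted p = 0.457 by edgeR). The 2 libraries of 1 pup stood on opposite sides of this comparison.

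The enzymes varied together from pup to pup. After the mean of each of the 13 groups had been subtracted from log2 CPM, all 15 pairs of the 6 enzymes were positively related over 64 pups, with Pearson's r from 0.40 to 0.83 and a median of 0.59. All 15 had an adjusted p under 0.05 in permutation tests within groups (100000 resamples, two-sided, adjusted over 21 pairs). The share of all gene pairs that pass this test was not computed, and shares of genes that reach such r are given below. The closest pairs were Sqle with Idi1 (r = 0.83, rho = 0.75), Sqle with Fdft1 (r = 0.82, rho = 0.77) and Hmgcs1 with Idi1 (r = 0.76, rho = 0.67), each with a permutation p of 1e-05, the smallest the test can give, and an adjusted p of 2.6e-05. The loosest was Hmgcs1 with Cyp51 (r = 0.40, rho = 0.33, permutation p = 0.00481 and 0.0181, adjusted p = 0.00777 for r). By Spearman's rho 2 of the 15 did not pass, Idi1 with Dhcr7 (r = 0.44, permutation p = 0.032, and rho = 0.20, adjusted permutation p = 0.200) and Sqle with Dhcr7 (r = 0.44, permutation p = 0.0165, and rho = 0.30, adjusted permutation p = 0.0533).

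The relation of Srebf2 to 5 of the enzymes did not pass the test. Its r was 0.08 with Hmgcs1, -0.17 with Sqle, -0.12 with Idi1, 0.20 with Fdft1 and -0.09 with Cyp51, with adjusted permutation p of 0.186 or more. With Dhcr7 it was 0.56 (rho = 0.55, permutation p = 1e-05, adjusted p = 2.6e-05). Of the 17360 other genes, 14.1% had an r above 0.5 with Srebf2, so that a value of this size is not particular to Dhcr7.

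Single pups show the pattern. In 7 of 64 pups all 6 enzymes lay below the group mean, and in 6 pups all 6 lay above it. The CPF3 female 43-3x was lower than its group mean by 0.87 in Idi1, 0.35 in Fdft1, 0.31 in Sqle, 0.31 in Hmgcs1, 0.43 in Dhcr7 and 0.22 in Cyp51 on the log2 scale, and by 0.15 in Srebf2. The CONSC female 13-8x was above its group mean by 0.47 in Idi1, 0.34 in Hmgcs1 and 0.33 in Sqle, while its Srebf2 was at -0.02. The SD of these values over pups was 0.21 for Idi1, 0.17 for Hmgcs1 and 0.10 to 0.13 for the other members.

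**Figure D3:**
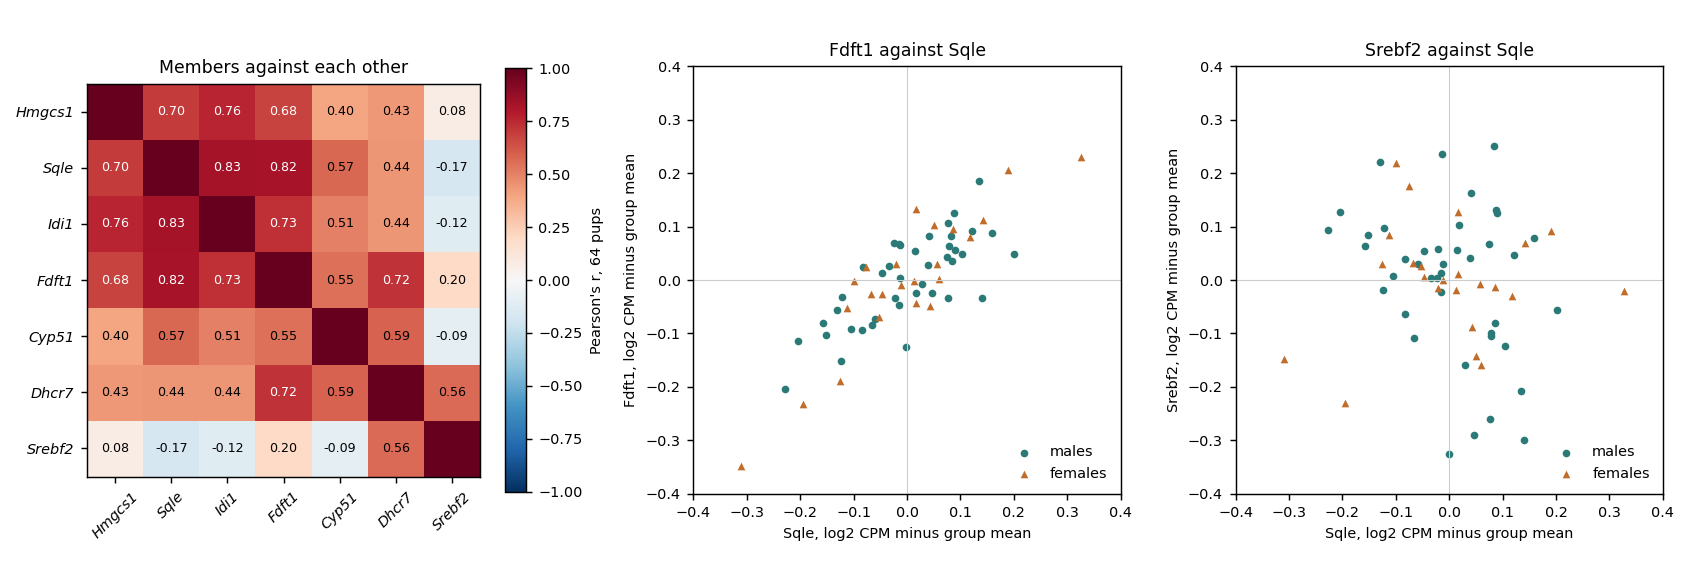
Left, Pearson's r between the members over 64 pups after subtraction of group means (log2 CPM). Middle and right, Fdft1 and Srebf2 against Sqle for each pup (circles males, triangles females, both axes log2 CPM minus the group mean), where Fdft1 rises with Sqle (r = 0.82) and the relation of Srebf2 to Sqle (r = -0.17) did not pass the test.

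The relation depended in part on which pups were taken. Without 13-8x and 43-3x, 13 of 15 enzyme pairs passed, with r from 0.18 to 0.77, and without CPF3 female 45-6x, the deepest library, again 13 of 15. With the 2 pups left out that lay farthest from the median of the first gene of each pair, 12 of 15 passed. With 1 pup per litter (44 pups) all 15 passed, with r from 0.50 to 0.88. Among 23 females all 15 passed (r from 0.65 to 0.90) and among 41 males 8 of 15 (r from -0.05 to 0.82). Within name form A (24 pups) 10 of 15 passed, with r from 0.46 to 0.89, and within form B (25 pups) 7 of 15, with r from -0.17 to 0.80. In form B and in males, Idi1 with Dhcr7 was at -0.17 and -0.05, respectively. The pairs among Hmgcs1, Sqle, Idi1 and Fdft1 lay between 0.44 and 0.80 in form B, where Idi1 with Fdft1 did not pass (adjusted permutation p = 0.110), and between 0.57 and 0.82 in males. In males, Dhcr7 passed with Fdft1 (r = 0.59, adjusted permutation p = 0.00028) and not with Hmgcs1 (0.14), Sqle (0.14), Idi1 (-0.05) or Cyp51 (0.20). Whether the sexes or the forms differ in these relations was not tested. The shares of all genes that reach such r were not computed within these subsets of pups.

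The values of Srebf2 also moved with the pups taken. Srebf2 with Dhcr7 passed in every setting run except within form A (r = 0.50, adjusted permutation p = 0.134). Srebf2 with Idi1 passed as a negative relation in males (r = -0.41, adjusted permutation p = 0.0192), within form B (r = -0.54, adjusted permutation p = 0.0402) and without 13-8x and 43-3x (r = -0.30, adjusted permutation p = 0.0495), and was at 0.31 in females, where it did not pass (adjusted permutation p = 0.239). Without subtraction of group means, Srebf2 passed with 4 of 6 enzymes, Sqle (r = -0.47), Idi1 (-0.29) and Cyp51 (-0.27) on the negative side and Dhcr7 (0.62) on the positive, with adjusted permutation p of 0.0404 or less.

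Relations between genes are common in such data, so the values are read beside those of all genes. The median r of a member with the 17360 other genes tested lay between -0.03 and 0.02. For Fdft1, the median r with the other enzymes was 0.72, and 0.109% of all genes reached this value with Fdft1. For Sqle the share was 0.305% (median r = 0.70), for Idi1 0.49% (0.73), for Hmgcs1 2.26% (0.68), for Cyp51 2.34% (0.55) and for Dhcr7 8.54% (0.44). The lowest r with another enzyme was reached by more genes, 16.4% for Hmgcs1 (r = 0.40), 11.4% for Idi1 (0.44) and 9.18% for Dhcr7 (0.43). At this lowest r, the share was 8.13% for Cyp51 (0.40), 7.26% for Sqle (0.44) and 1.53% for Fdft1 (0.55). Values like those of the loosest pairs were thus not rare among all genes. Of measures of the libraries, the log2 total count had r between -0.19 and 0.04 with the enzymes and of 0.20 with Srebf2. The share of counts in the 50 most abundant genes had r of -0.55 with Srebf2, -0.34 with Dhcr7, -0.33 with Hmgcs1 and -0.20 to 0.10 with the other enzymes. The part of these measures in the relations was not tested.

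Genes most like the members were found as those with the highest mean r over all 7 members in the same 64 pups. They were Ndrg1 (mean r = 0.64), LOC678766 (0.62), Acly (0.62), RGD1562948 (0.61), Acat2 (0.61), Met (0.60), Sept6 (0.60), Pnpla3 (0.60), Clmp (0.59) and Zdhhc9 (0.58). For each of the 10, Srebf2 was the member with the lowest r, from 0.14 for Sept6 to 0.46 for Ndrg1.

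Other genes of cholesterol metabolism were placed by the same measure. Of 15 further synthesis enzymes, 9 had a mean r above 0.3 with the 6 enzyme members and 0 below -0.3, with a median of 0.43, against 11.1% of all genes above 0.3 and a median of 0.01. Msmo1 (mean r = 0.65), the sterol oxidase that acts after Cyp51, Hsd17b7 (0.64) and Nsdhl (0.63), which complete demethylation, Acat2 (0.64), which starts the pathway, and Fdps (0.61), which makes farnesyl diphosphate, had the 5 highest values. Other steps of the same pathway had low values, with mean r of 0.01 for Mvk (mevalonate kinase) and 0.06 for Mvd (mevalonate diphosphate decarboxylase). Both instead had r of 0.75 and 0.80, respectively, with Srebf2, and Tm7sf2 (0.68) and Lss, lanosterol synthase (0.71, with a mean r of 0.43 with the enzymes), were high too. Others of the 15 were negative with Srebf2, among them Ggps1 (-0.67), Nsdhl (-0.30) and Msmo1 (-0.29). The median r of the 15 with Srebf2 was 0.25, so that the list had no single direction.

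Among SREBP regulators, Insig1 (0.52), Mbtps2, a protease that releases SREBP (0.45), and the sterol carrier gene Stard4 (0.42) went with the enzymes, and Scap had r of 0.74 with Srebf2 and a mean r of -0.10 with the enzymes. Srebf1 had a mean r of -0.32 with the enzymes and r of 0.56 with Srebf2. Mbtps1, the other protease that cuts SREBP, had a mean r of -0.40 with the enzymes and r of 0.45 with Srebf2. Of 9 genes of uptake and trafficking, Mylip, whose product marks lipoprotein receptors for degradation, was the one above 0.3 (0.43), and Npc2, a carrier of lysosomal cholesterol, the one below -0.3 (-0.33). That is 11.1% of this list on each side, against 11.1% of all genes above 0.3 and 7.51% below -0.3. The counts of this list were thus near the shares of all genes. Lrp1 (0.82) and Scarb1 (0.80), receptors for lipoproteins, were among the genes closest to Srebf2. Of 8 genes of export, storage and turnover none was above 0.3 with the enzymes, and the exporter Abcg1 was at -0.48.

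Over the 39 genes, 8 had a mean r above 0.5 with the enzymes and 12 an r above 0.5 with Srebf2, and 0 had both. This threshold was chosen after the values were seen. Of all genes, 1.59% passed it with the enzymes and 14.1% with Srebf2, and 12 of the 276 that passed with the enzymes (4.35%) passed with both, so that few with both are seen among all genes too.

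Cell type markers had their own relation to both. With the enzymes, Neurod6, a factor of excitatory neurons of cortex and hippocampus, had a mean r of 0.55, while the other 3 hippocampal markers had 0.12 (Prox1), 0.04 (Zbtb20) and -0.34 (Wfs1). Of the 5 neuronal markers, Slc17a7, a vesicular glutamate transporter, had a mean r of 0.42, Snap25 of 0.37, Tubb3 of 0.12, Rbfox3 of 0.00 and Gad1, which makes GABA in inhibitory neurons, of -0.49. The microglial genes had mean r of -0.32 (Csf1r), -0.18 (Aif1), -0.15 (Cx3cr1) and -0.03 (P2ry12). Of the choroid plexus genes, Ttr and Folr1 had -0.37 each and Kl -0.18. The 7 oligodendrocyte markers lay between -0.25 and 0.00 and the 5 astrocyte markers between -0.28 and 0.05. With Srebf2, the neuronal genes Tubb3 (0.80) and Rbfox3 (0.76) had the highest r of the 5 neuronal markers, followed by Slc17a7 (0.48), Snap25 (0.03) and Gad1 (-0.37). The 4 hippocampal markers had r of 0.53 (Wfs1), 0.28 (Neurod6), 0.20 (Zbtb20) and -0.22 (Prox1) with Srebf2. Markers of other cell types also had such values, with 0.56 for the endothelial Cldn5, against 0.07 for Pecam1 and 0.00 for Flt1. Those of oligodendrocyte precursors had 0.51 (Cspg4), 0.50 (Olig1), 0.21 (Olig2), 0.18 (Gpr17) and -0.53 (Pdgfra). Summed choroid plexus markers ranged from 739 to 4437 CPM over pups, and summed oligodendrocyte markers from 263 to 859 CPM. The part of cell composition in the co-variation was not tested.

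Time of day was recorded at dissection, and its relation to each member was tested. Over 63 pups with 1 recorded time, between 9.45 and 15.45 h (hours and minutes), r of the group-centred values with time lay between -0.22 and 0.09, and 0 of 7 relations passed (adjusted permutation p of 0.507 or more). The share of all genes related to time of day was not computed. Hmgcs1 had the strongest, with r = -0.22 (permutation p = 0.0724) and rho = -0.26 (permutation p = 0.0463), and r = -0.20 without the 2 pups farthest from the median time. A female control, N4-3x, was left out here because its 2 libraries carry different times.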

How the data were processed

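RNA of dorsal hippocampus from 64 rat pups was sequenced (single reads, poly(A) selection, stranded kit). The authors deposited raw counts per gene and library; per the labels, STAR and featureCounts were used with build Rnor_6.0, and kallisto is named without its role. Versions are not given in the sources used here. Libraries of 1 pup (2 pups with 2 each) were summed. The members and lists were chosen with earlier results of these data known.

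Contrasts were fitted with edgeR 4.0.16 (quasi-likelihood test, TMM scaling, filterByExpr, in R 4.3.3), within the groups of each comparison, with Benjamini-Hochberg adjustment over all genes tested and a threshold of 0.05. SE is the log2 fold change divided by the root of F. Alternatives were limma 3.58.1 (voom, litter as a block), DESeq2 1.42.0, other scaling and other filters (none beyond 1 count, or 10 counts in every pup). Further ones were the time window of 10.30 to 13.20 (hours and minutes), 1 pup per litter, controls of the same route, the name form and leaving out each pup. The relation to time of day had 52 pups within this window. Correlations used TMM-scaled log2 CPM with a prior count of 0.5, computed from the deposited counts, with 100000 permutations within groups. CPM levels in the text use the total count. Named genes are the members, list genes that passed a test or were needed as extremes, and the 10 genes most like the members. The code was tested on simulated data. Labels give litters but not whether other steps were independent, so p-values measure the spread between these pups. Intervals of counting error cover counting only.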

Additional observations from a re-analysis of the deposited data

Results flagged for a closer look

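In each of the 13 groups and for each of the 7 members, the highest and lowest pup was tested for standing apart from the others by Dixon's ratio of gap to range. Of 91 tests 7 were past the critical value, and chance alone gives about 1 in 20.

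Hmgcs1 accounted for 4 of these. BPA0.5 male 73-4y had 560 CPM, against 747 to 772 CPM in the other males of the group. BPA5 male 88-3y had 1040 CPM against 737 to 855 CPM, and CONF female N1-8x 818 CPM against 739 to 755 CPM. CPF3 male 36-3y was low in Hmgcs1, with 577 CPM against 860 to 1019 CPM, and also in Sqle, with 159 CPM against 187 to 196 CPM.

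CPF3 female 43-3x had 125 CPM of Fdft1, against 173 to 180 CPM in the other 3 females. CONF male N4-7y had 91.0 CPM of Dhcr7, against 80.6 to 82.0 CPM.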

How the results depend on the processing

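Counts of members past the threshold were 0 in all treatment, agent, route, interaction and name form contrasts under every alternative run. Between control females and males the count was 2, and it was 1 without a filter on low counts, within the time window and within name form A, Srebf2 being the gene that passed there (Fdft1 had adjusted p of 0.108, 0.140 and 0.169 by edgeR), with 16.1%, 23.2% and 11.7% of all genes called in place of 30.9%. Leaving out 1 pup at a time gave 1 to 4 members. With the name form as a covariate, directions turned in high-dose males for Srebf2 (-0.093 with Aro5, -0.043 with BPA5, -0.041 with CPF3) and for Cyp51 with Aro5 (0.11); this fit rests on 2 libraries of 1 pup, and the cause was not tested.

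Of 21 pairs of members, 16 were called over all pups, 10 in males, 10 within form A, 9 within form B, and 16 each in females and with 1 pup per litter. The share of all gene pairs called was not computed in any of these settings. The r of Idi1 with Dhcr7 turned to -0.052 in males and -0.17 in form B. With litter as a replicate block, the consensus correlation of litter-mates was -0.170 between the sexes in controls and -0.00610 in the interaction fit, and the block changed no call of a member (2 members between the sexes, 0 in each interaction).

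Counting error was at most 3.63% of any value, and the part of depth beyond it was not tested. Treatment and name form cannot be told apart in high-dose males.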

Other observations

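Litter-mates of both sexes were available in 18 litters, a comparison added with the values in view. The group-centred values of a male and a female of 1 litter had r between -0.47 and 0.18 over the 7 members. The lowest was that of Srebf2 (r = -0.47, permutation p = 0.0462, adjusted p = 0.324 over 7 genes, rho = -0.37 with permutation p = 0.136), and without the 2 litters farthest from the median r was -0.37. For Idi1, r was 0.18 (permutation p = 0.459). None passed the threshold after adjustment.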
